A study of Homo sapiens with 12 samples.

Results

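NFE2L2 encodes NRF2, the transcription factor that turns on genes against oxidative and electrophilic stress. In cells at rest, KEAP1 holds NRF2 and presents it to the CUL3 ubiquitin ligase, so NRF2 protein is made and degraded continuously, and the F-box protein encoded by BTRC serves a second degradation route. NRF2 that escapes enters the nucleus, pairs with a small MAF protein (MAFF, MAFG or MAFK) and binds antioxidant response elements, sites that BACH1, a heme-binding repressor, can occupy with the same small MAF partners. SQSTM1 encodes p62, an autophagy receptor that binds KEAP1, and NFE2L1 encodes NRF1, a relative of NRF2 best known for raising proteasome genes when proteasome activity falls. Much of this control acts on protein stability, localization or DNA binding, which RNA levels do not measure.

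These 10 genes, the regulators of NRF2 and its small MAF partners, were described in SH-SY5Y cells, an established human neuroblastoma line often used as a model of neurons. They were chosen by symbol, and all 10 were found among 60710 genes in the deposited count table. These genes and the gene lists used below were chosen with earlier results of these data known. Their shares set beside those of all tested genes are therefore descriptions, not tests. Total mRNA had been profiled in 12 libraries, 3 in each of 4 groups. The control group received the solvent DMSO alone, and the other groups received HPPE, zinc protoporphyrin or tin protoporphyrin, each at 5 µM. Every well held 2 mL of medium with 10% serum at up to 80% confluence, received 10 µL of DMSO or of a compound in DMSO, and was lysed after 5 h. The study's title concerns NRF2 activators, and the labels do not spell out HPPE. Zinc and tin protoporphyrin have the ring of heme with zinc or tin in place of iron, and are known as inhibitors of heme oxygenase. All results come from 1 cell line, 1 dose and 1 time. The labels do not say that replicates were separate cultures, so the p-values measure the spread between these libraries, which may be technical.

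Libraries held 1337028 to 9145399 counts, and control replicate 3, HPPE replicate 3 and zinc protoporphyrin replicate 1 were the shallowest. Levels are given as CPM, counts scaled to a library of 1e+06 with TMM-scaled library sizes. A count of 3, the most that a count of 0 allows, was worth 0.337 to 2.26 CPM depending on the library, for counting error only. Of 10 markers of noradrenergic neuroblastoma cells, 9 ran from 163 to 1470 CPM in the 12 libraries, while TH, the enzyme that starts catecholamine synthesis, had 0 to 2 counts. Leukocyte markers had at most 10 counts in a library, with CD3E and LYZ at 0, and 6 epithelial markers summed to 10.2 to 14.2 CPM. Fibroblast markers summed to 794 to 905 CPM in the control, 844 to 877 CPM with HPPE, 785 to 896 CPM with zinc and 884 to 982 CPM with tin protoporphyrin. The highest of these markers were FN1 at 427 to 619 CPM and COL3A1 at 212 to 295 CPM, and the lowest was PRRX1 with at most 1 count. Of the 7 tested, SNAI2 was called higher with HPPE, COL1A2 and DCN higher and COL3A1 lower with zinc, and COL1A2 and DCN higher with tin protoporphyrin (edgeR adjusted p from 0.00658 to 0.0388). Of all tested genes 4.04%, 2.25% and 2.28% were called with HPPE, zinc and tin protoporphyrin. The noradrenergic markers summed to 5260 to 5510 CPM in the control, 4970 to 4990 CPM with HPPE, 4600 to 5100 CPM with zinc and 4940 to 5110 CPM with tin protoporphyrin, and the part of these differences in the results was not tested. Libraries also differed, within and between groups, in how the level of a gene moved with the length of its transcript. The Spearman correlation across genes ran from -0.54 in tin protoporphyrin replicate 1 to 0.57 in zinc protoporphyrin replicate 3. It was -0.1, -0.47 and -0.45 in the HPPE libraries and 0.22, 0.38 and 0.57 in the zinc libraries, so these groups did not overlap in it. HPPE replicates 2 and 3 differed by a chi-square of 1.11 per gene, against 1.49 to 17.42 for the other pairs of 1 group, so results were also computed with those libraries summed as 1.

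In control cells the 10 genes spanned a wide range of levels per transcript length. On the TPM scale, which divides counts by the length of the longest annotated transcript, NFE2L1 was the highest at 245 ± 13.9 (SD, n = 3). SQSTM1 at 90.0 ± 6.59, MAFG at 78.3 ± 6.49 and KEAP1 at 75.9 ± 5.10 TPM came next, each overlapping its neighbour in range. NFE2L2 itself stood at 48.9 ± 3.70 TPM, below KEAP1 in every control library. CUL3 at 34.3 ± 0.506, BACH1 at 31.6 ± 3.29 and BTRC at 28.9 ± 3.17 TPM followed, again with overlapping neighbours. The remaining small MAF genes were the lowest, MAFK at 12.3 ± 4.65 and MAFF at 4.64 ± 1.75 TPM. The order depends on the length used: with all annotated exons merged, NFE2L1 stayed first and MAFK and MAFF stayed last, but SQSTM1 moved from rank 2 to rank 4 (44.8 TPM) and NFE2L2 from rank 5 to rank 7 (29.8 TPM).

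**Figure D1:**
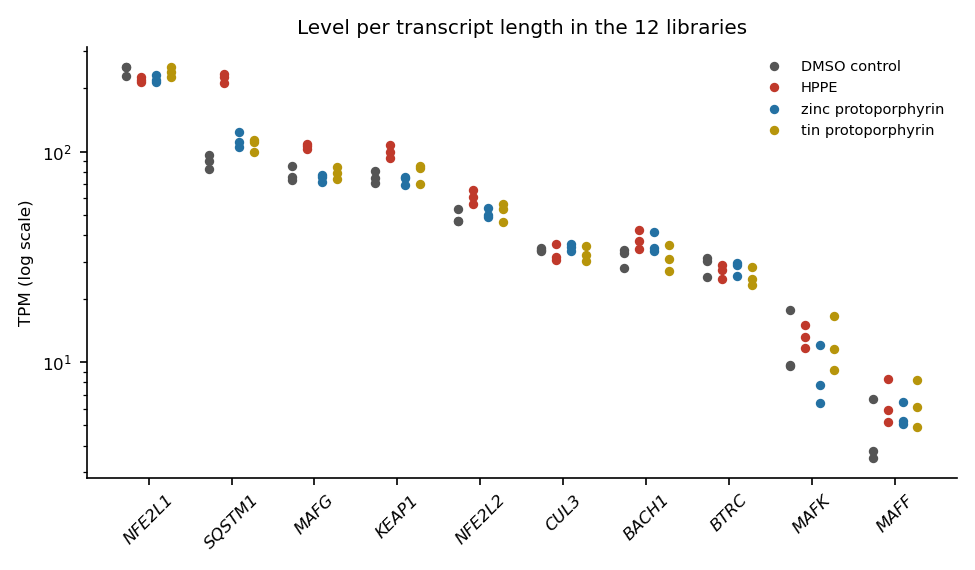
Level of each gene per transcript length (TPM, logarithmic axis) in each of the 12 libraries, genes ordered by their mean in the control libraries, 1 point per library and 1 colour per group. MAFK and MAFF lie at the bottom in all groups, NFE2L1 lies at the top in the control and protoporphyrin libraries, and the 3 HPPE points of SQSTM1, from 212 to 235 TPM, lie level with those of NFE2L1.

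HPPE raised 3 of the 10 genes over the control, SQSTM1 by 2.46-fold, MAFG by 1.37-fold and KEAP1 by 1.33-fold, and lowered none (edgeR quasi-likelihood test, adjusted p under 0.05 over 16366 genes). Across all tested genes 4.04% were called in this comparison, 2.57% higher and 1.47% lower. The median log2 fold change of the 10 genes was 0.28, against 0.02 over all tested genes. All 10 passed the filter on low counts. In bulk RNA, fewer cells of a type and less RNA per cell cannot be told apart.

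**Figure D2:**
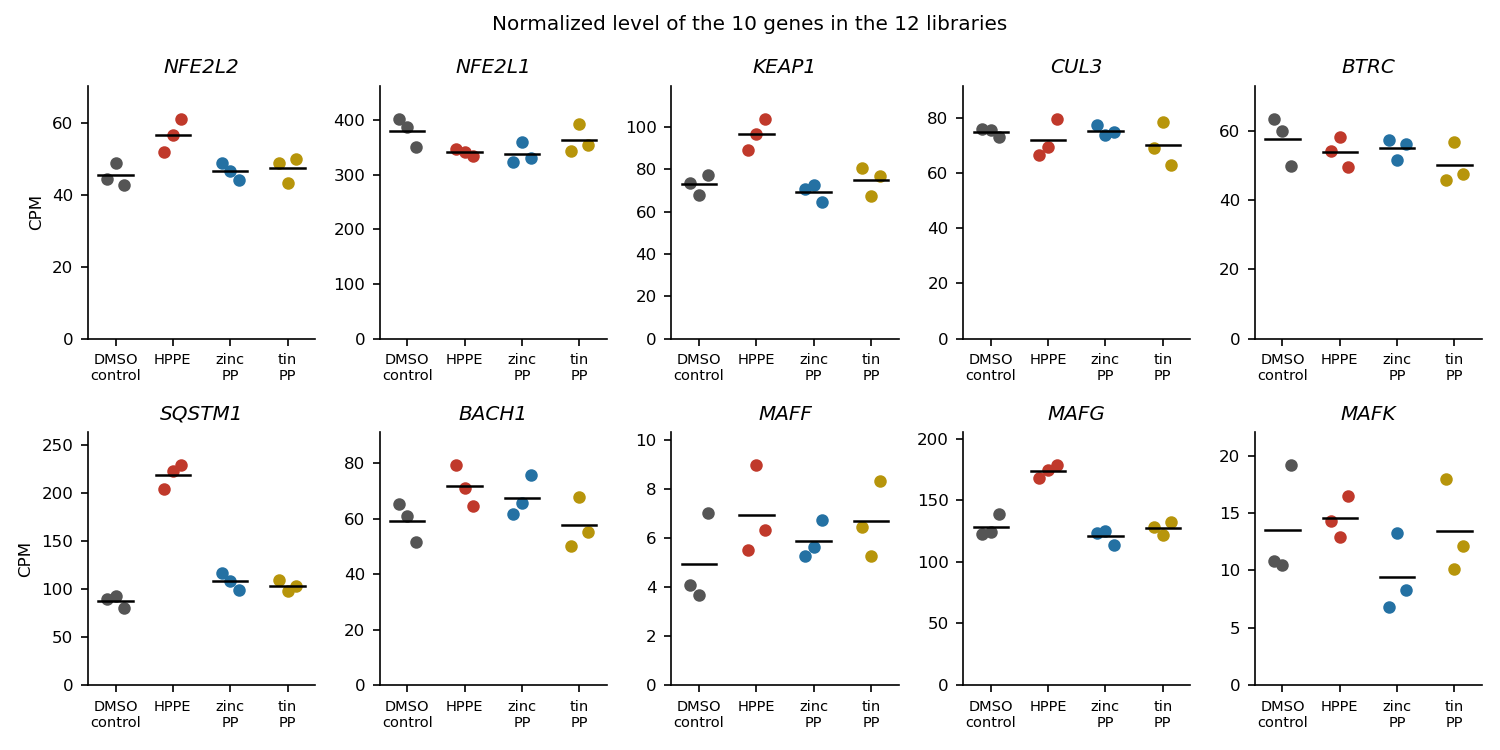
CPM of the 10 genes in each library, 1 point per library and a bar at the mean of 3, with linear axes from 0 that differ between genes ("PP" stands for protoporphyrin). The HPPE points of SQSTM1, MAFG, KEAP1 and NFE2L2 lie above all control points, while those of NFE2L1 lie below.

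SQSTM1 showed the largest change of the 10. It stood at 89.6, 92.8 and 79.8 CPM in the control libraries and at 204, 223 and 229 CPM with HPPE. The groups did not overlap, and every HPPE library was far above the highest control library. Means were 87.4 ± 6.79 and 218 ± 13.0 CPM (SD, n = 3), a log2 fold change of 1.30 ± 0.09 (SE) with an edgeR adjusted p of 4.74e-08. Per transcript length SQSTM1 reached 212, 228 and 235 TPM with HPPE, beside 225, 219 and 215 TPM of NFE2L1 in the same libraries. With all annotated exons merged as the length, SQSTM1 was at 114 ± 6.91 TPM with HPPE and NFE2L1 at 233 ± 3.98 TPM, so that order depends on the length used. The gene (chromosome 5, 179806398 to 179838078, plus strand, GRCh38) shares 20.67% of its exon bases with MRNIP on the other strand. It is not given whether the counting used strand, so reads of that stretch may not be told apart. MRNIP itself had 30.6 CPM in control and 35.8 CPM in HPPE cells, a log2 fold change of 0.24 ± 0.12 (edgeR adjusted p = 0.322).

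With the protoporphyrins SQSTM1 lay between those levels. It was at 117, 108 and 99.2 CPM with zinc protoporphyrin and at 109, 97.4 and 104 CPM with tin protoporphyrin. Each of these libraries lay above every control library and below every HPPE library. The log2 fold changes over the control were 0.27 ± 0.09 for zinc (edgeR adjusted p = 0.122) and 0.22 ± 0.09 for tin (adjusted p = 0.228), neither past the threshold. SQSTM1 was the only member whose zinc libraries did not overlap the control, where 11.6% of all tested genes lay wholly above it, and the only such member for tin, where 10.3% did.

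Whether SQSTM1 was called with the protoporphyrins depended on the model. Its log2 change ran from 0.22 to 0.33 for zinc and from 0.17 to 0.27 for tin over 16 alternatives each. With a covariate for the main axis of difference between libraries of 1 group, which goes with the length trend above, SQSTM1 was called for zinc (log2 0.27, edgeR adjusted p = 0.00463) and for tin (log2 0.19, adjusted p = 0.0303). In that model 9.019% and 13.84% of all tested genes were called. The axis was drawn from the same counts that were tested, so p-values with this covariate, here and below, can be too small. Its scores also differed between groups, from -1.019 to -0.069 with HPPE and from 0.267 to 1.571 with zinc protoporphyrin. With a correction for transcript length and GC content it was called for zinc (log2 0.32, adjusted p = 0.0118) and not for tin (log2 0.17, adjusted p = 0.19), where 5.493% and 4.856% of all tested genes were called.

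Among the small MAF genes only MAFG was called with HPPE. MAFG makes up most of the small MAF RNA in these cells. Its 122, 124 and 138 CPM in control libraries became 168, 175 and 178 CPM with HPPE, with no overlap. The log2 fold change was 0.45 ± 0.08 (edgeR adjusted p = 0.00185). With zinc protoporphyrin MAFG was at 123, 125 and 114 CPM and with tin protoporphyrin at 128, 122 and 132 CPM, both overlapping the control. The fold changes were -0.08 (95% interval -0.24 to 0.09) and 0.00 (-0.16 to 0.16) on the log2 scale, intervals that do not reach the change seen with HPPE. HPPE libraries had a length trend of -0.10 to -0.47, and so did the highest MAFG library of the control, replicate 3, at -0.46. With the library covariate the HPPE change was 0.41 (edgeR adjusted p = 8.49e-08), where 11.035% of all tested genes were called.

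MAFF and MAFK were too low for small changes to be detected. MAFF had 11 to 31 counts in control libraries and 7 to 77 counts in treated ones. It was at 4.10, 3.70 and 7.02 CPM in the control and at 5.50, 8.97 and 6.33 CPM with HPPE. The spread within each group covered most of the difference between them, and MAFF missed the threshold (log2 0.73 ± 0.26, edgeR adjusted p = 0.149). With zinc protoporphyrin MAFF was at 5.27 to 6.74 CPM (log2 0.51 ± 0.28, adjusted p = 0.334), and with tin protoporphyrin at 5.29 to 8.35 CPM (log2 0.63 ± 0.26, adjusted p = 0.26). In all 3 comparisons the fitted direction was up. Control replicate 3 lay above every zinc library and above at least 1 library of HPPE and of tin protoporphyrin. Mean CPM was 4.94 in the control and 6.94, 5.88 and 6.69 with HPPE, zinc and tin, each a smaller rise than the fitted change. The comparisons share their control libraries and are therefore not independent.

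MAFK was at 10.8, 10.4 and 19.1 CPM in the control and at 14.3, 12.9 and 16.5 CPM with HPPE. Control replicate 3 was above every HPPE library, and the log2 fold change was 0.26 ± 0.25 (edgeR adjusted p = 0.622). With zinc protoporphyrin it ran from 6.78 to 13.2 CPM and with tin protoporphyrin from 10.1 to 17.9 CPM, with log2 changes of -0.21 ± 0.27 and 0.17 ± 0.24. For tin the mean CPM, 13.4 against 13.5 in the control, did not share the sign of the fitted change. The 95% interval for HPPE, from -0.27 to 0.79, includes both 0 and the change of MAFG, so a change of that size is not excluded. An opposite-strand gene, TMEM184A, covers 18.15% of the MAFK exon bases and had at most 9 counts in a library.

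Added together, the 3 small MAF genes came to 86.5, 89.3 and 109.9 TPM in control and to 121.7, 126.0 and 129.5 TPM in HPPE libraries. With zinc protoporphyrin the sum was 85.7 to 93.0 TPM and with tin protoporphyrin 88.0 to 104.3 TPM, both overlapping the control. MAFG contributed 82.5% ± 4.10 of the sum in the control and 84.3% ± 0.573 with HPPE (SD, n = 3), so the make-up moved by less than the spread of the control. No test was run on the sum or the shares. On the merged exon length the MAFG share was 86.5% in the control and 88.1% with HPPE.

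**Figure D3:**
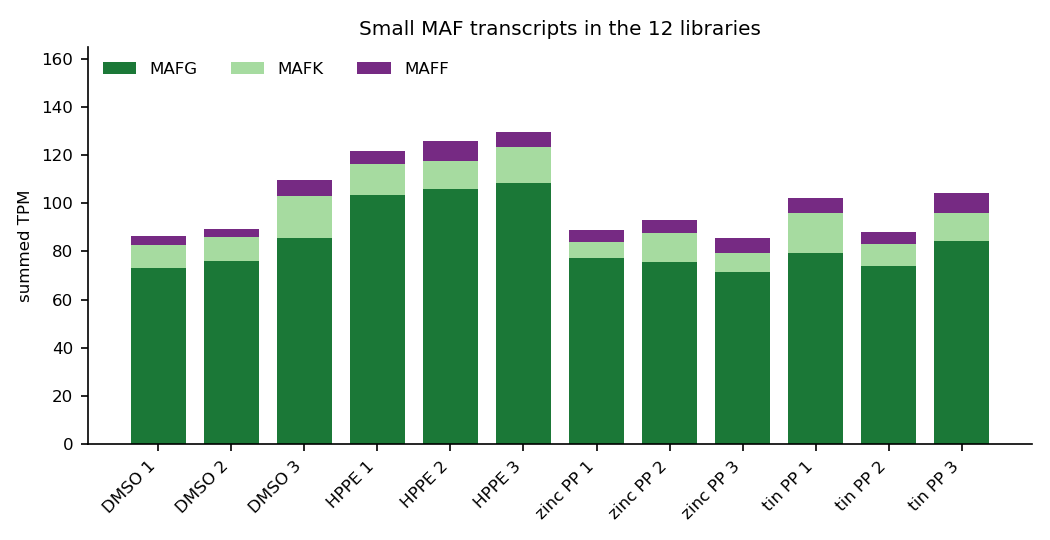
Summed TPM of the 3 small MAF genes in each library, stacked by gene, on a linear axis from 0. The 3 HPPE bars are the tallest, from 121.7 to 129.5 TPM, and the MAFG segment fills most of every bar.

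KEAP1, the adaptor that hands NRF2 to CUL3, stood at 73.4, 68.0 and 77.2 CPM in control libraries and at 89.3, 96.9 and 104 CPM with HPPE. The groups did not overlap, and the means of 72.9 ± 4.64 and 96.7 ± 7.28 CPM (SD, n = 3) gave a log2 fold change of 0.42 ± 0.09 (edgeR adjusted p = 0.0145). This call was the least stable of the 3: the fold change stayed between 0.32 and 0.47 in all 17 alternatives, but the adjusted p rose above 0.05 in 5 of them, to 0.0635 without control replicate 1, 0.127 without control replicate 2, 0.0795 without HPPE replicate 2, 0.0782 without HPPE replicate 3 and 0.0614 with HPPE replicates 2 and 3 summed. With the protoporphyrins KEAP1 overlapped the control, at 64.7 to 72.8 CPM for zinc and 67.5 to 80.9 CPM for tin. The log2 changes were -0.06 (95% interval -0.26 to 0.14) and 0.06 (-0.14 to 0.25).

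**Figure D4:**
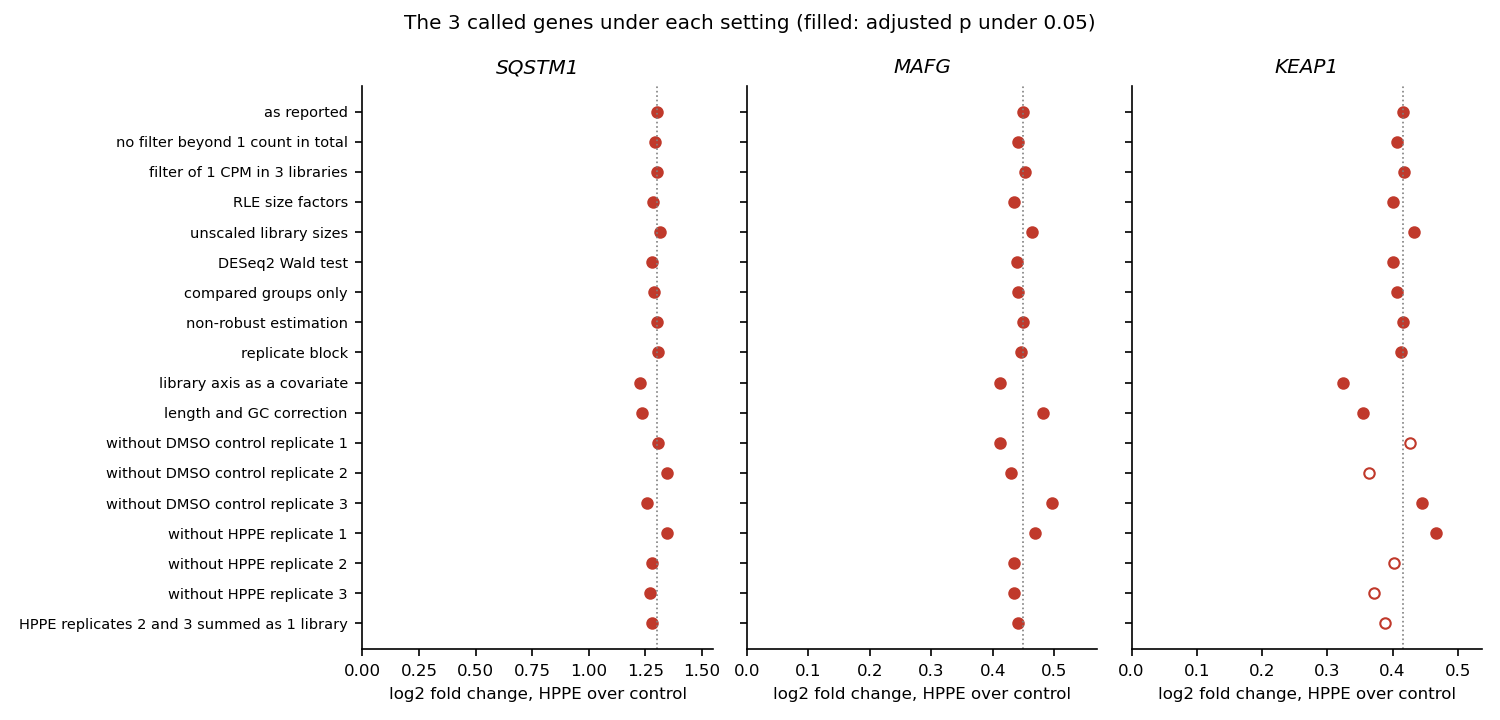
Log2 fold change of SQSTM1, MAFG and KEAP1 in HPPE over control cells as reported and under each alternative, with a dotted line at the reported value, filled points where the adjusted p was under 0.05 and open points where it was not; the axes start at 0 and differ between genes. SQSTM1 and MAFG are filled throughout, and KEAP1 is open in 5 alternatives.

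NFE2L2 was higher with HPPE in every library but was not called. It was at 44.4, 49.0 and 42.8 CPM in the control and at 52.0, 56.6 and 61.1 CPM with HPPE. The ranges did not overlap, as for 11.9% of all tested genes in that direction, and 4 of the 10 members did so (SQSTM1, MAFG, KEAP1 and NFE2L2). The log2 fold change was 0.29 ± 0.10 (95% interval 0.09 to 0.49), with an edgeR p of 0.00795 before and 0.109 after adjustment. The adjusted p stayed above 0.05 in all 17 alternatives, from 0.0877 to 0.426. With zinc protoporphyrin NFE2L2 was at 48.9, 46.7 and 44.0 CPM and with tin protoporphyrin at 48.9, 43.3 and 49.96 CPM, with log2 changes of 0.00 (-0.21 to 0.21) and 0.04 (-0.16 to 0.24). An annotated gene on the same strand, AC019080.1, shares 17.63% of the NFE2L2 exon bases.

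The balance of NFE2L2 to KEAP1 RNA moved little against the control. The ratio of their TPM was 0.627, 0.746 and 0.574 in the control and 0.603, 0.605 and 0.609 with HPPE. The HPPE libraries lay inside the control range. Zinc protoporphyrin libraries gave 0.665 to 0.716 and tin protoporphyrin libraries 0.626 to 0.675, also inside it. Every HPPE library lay below every protoporphyrin library, and no test was run on the ratio.

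NFE2L1, the relative of NRF2, was the most abundant of the 10 per length in the control. It was at 403, 388 and 351 CPM in the control and at 347, 343 and 334 CPM with HPPE. It was the only member whose HPPE libraries all lay below the control, as 9.44% of all tested genes did, and by a narrow margin at control replicate 3. The log2 fold change of -0.16 ± 0.08 missed the threshold (edgeR adjusted p = 0.319). With zinc protoporphyrin NFE2L1 was at 323, 361 and 331 CPM (log2 -0.17 ± 0.08, adjusted p = 0.279), overlapping the control. With the library covariate the zinc change was -0.23 and was called (adjusted p = 0.00186), where 9.019% of all tested genes were called. With tin protoporphyrin it ran from 344 to 393 CPM (log2 -0.07 ± 0.08, adjusted p = 0.764).

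BACH1, the repressor that competes for small MAF partners, was at 65.4, 61.1 and 51.7 CPM in the control and at 79.3, 71.3 and 64.6 CPM with HPPE. HPPE replicate 3 lay below control replicate 1, so the groups overlapped (log2 0.25 ± 0.12, edgeR adjusted p = 0.291). With zinc protoporphyrin BACH1 was at 61.7, 65.7 and 75.7 CPM (log2 0.18 ± 0.12, adjusted p = 0.453). With tin protoporphyrin it was at 50.2, 67.7 and 55.1 CPM (log2 -0.08 ± 0.12, adjusted p = 0.835). In all 4 groups the library with the highest BACH1 was also the one whose length trend was highest: control replicate 1 (0.44), HPPE replicate 1 (-0.10), zinc protoporphyrin replicate 3 (0.57) and tin protoporphyrin replicate 2 (0.52). The longest BACH1 transcript has 5769 bases and 38.6% GC.

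With the library covariate BACH1 was called in HPPE against control cells, at 0.42 on the log2 scale (edgeR adjusted p = 2.69e-05). It was also called there against zinc (0.39, adjusted p = 0.00303) and against tin (0.46, adjusted p = 4.84e-07). In that model 11.035% of all tested genes were called against the control, 3.941% against zinc and 8.127% against tin. The correction for length and GC content gave 0.28 against the control, with an adjusted p of 0.0572. The BACH1 result thus rests on how differences between libraries are modelled, and the covariate was itself drawn from the counts under test.

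CUL3, the scaffold of the ligase, and BTRC were not called with any compound in the model as reported. CUL3 was at 73.4 to 76.2 CPM in the control, 66.5 to 79.8 CPM with HPPE, 73.9 to 77.6 CPM with zinc and 62.9 to 78.9 CPM with tin protoporphyrin. Its log2 changes were -0.08, 0.00 and -0.10, each with an SE of 0.09 to 0.10. BTRC was at 63.4, 59.9 and 49.8 CPM in the control, 49.4 to 58.0 CPM with HPPE and 51.6 to 57.2 CPM with zinc protoporphyrin. With tin protoporphyrin BTRC was at 45.7, 56.7 and 47.4 CPM, a log2 change of -0.24 ± 0.10 that missed the threshold (edgeR adjusted p = 0.286). It was called with the library covariate (-0.23, adjusted p = 0.0286), a model in which 13.84% of all tested genes were called.

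**Figure D5:**
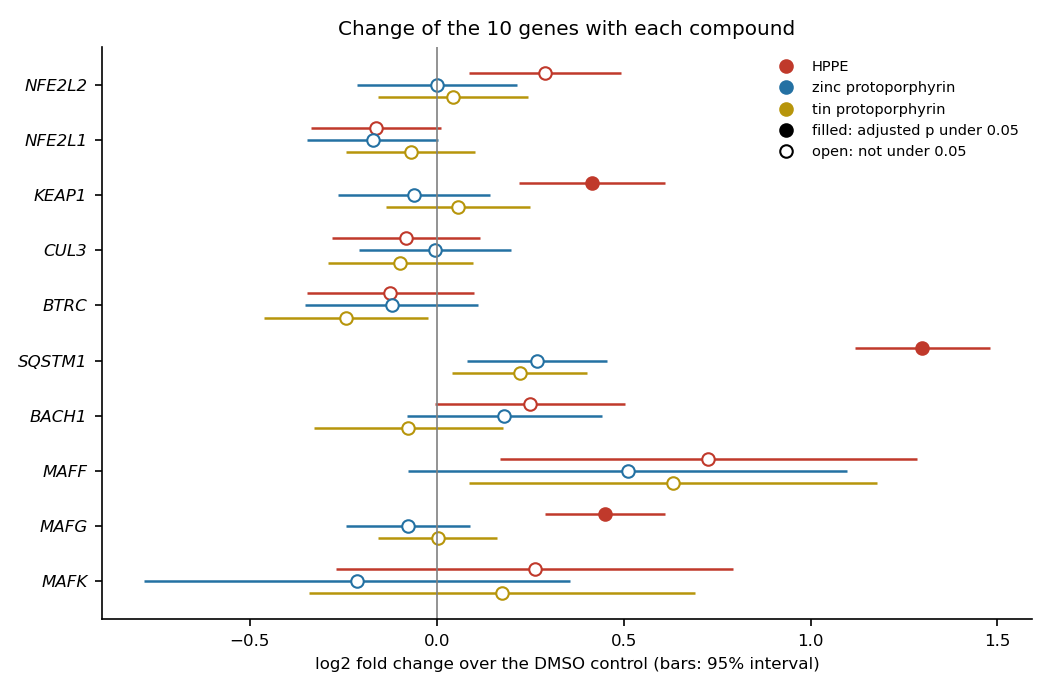
Log2 fold change over the DMSO control for each gene and compound, with bars for the 95% interval, filled where the edgeR adjusted p was under 0.05. Filled points appear for SQSTM1, MAFG and KEAP1 with HPPE, and the widest bars belong to MAFF and MAFK.

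For zinc protoporphyrin none of the 10 genes was called against the control by edgeR, where 2.25% of all tested genes were. For tin protoporphyrin none was either, where 2.28% were. SQSTM1 was the member with an unadjusted p under 0.05 for zinc, SQSTM1, MAFF and BTRC were those for tin, and DESeq2 called 0 for both.

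The compounds were then set against each other at the same dose and time. These comparisons share libraries with those above. HPPE was higher than zinc protoporphyrin for SQSTM1 (log2 1.03 ± 0.09, edgeR adjusted p = 1.76e-06), MAFG (0.53 ± 0.08, adjusted p = 0.000898) and KEAP1 (0.48 ± 0.09, adjusted p = 0.0074), that is 3 of 10 members where 12.7% of all tested genes were called and 6.44% were called higher. NFE2L2 and these 3 had HPPE libraries wholly above the zinc libraries, as 19.0% of all tested genes did. The length trend separated these groups too, at -0.47 to -0.1 for HPPE and 0.22 to 0.57 for zinc. Its part in these calls was not tested. The share of all genes called rested on single libraries: it was 1.103% without HPPE replicate 2, 2.022% without HPPE replicate 3 and 1.032% without zinc protoporphyrin replicate 3. KEAP1 lost this call without zinc protoporphyrin replicate 3 (adjusted p = 0.0784). NFE2L2 was close to the threshold (0.29 ± 0.10, adjusted p = 0.0569) and passed it without HPPE replicate 1 (adjusted p = 0.0458) and when the 2 groups were fitted alone (adjusted p = 0.0267). In those settings 11.386% and 27.479% of all tested genes were called.

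HPPE was higher than tin protoporphyrin for SQSTM1 (log2 1.08 ± 0.08, edgeR adjusted p = 5.57e-07) and MAFG (0.45 ± 0.07, adjusted p = 0.00297), 2 of 10 members where 1.45% of all tested genes were called and 0.745% were called higher. HPPE libraries lay wholly above the tin libraries for SQSTM1, MAFG, KEAP1 and NFE2L2, as for 9.81% of all tested genes. KEAP1 was just outside (0.36 ± 0.09, adjusted p = 0.0516). It was called in 4 of 17 alternatives: with the library covariate (adjusted p = 0.000634), with the length and GC correction (0.00251), without tin protoporphyrin replicate 1 (0.0291) and with no filter beyond 1 count in total (0.0376). In those settings 8.127%, 3.12%, 2.018% and 1.089% of all tested genes were called.

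Zinc and tin protoporphyrin, which differ in the metal, were not told apart at any of the 10 genes. By edgeR 0 members were called, where 0.00611% of all tested genes were, and DESeq2 called 0. BACH1 was the member with an unadjusted p under 0.05. The difference of zinc minus tin for SQSTM1 was 0.05 on the log2 scale, with a 95% interval from -0.13 to 0.23. For MAFG it was -0.08 (-0.24 to 0.08), for KEAP1 -0.12 (-0.31 to 0.08) and for NFE2L2 -0.04 (-0.24 to 0.16), so differences up to those bounds remain possible. For BACH1 it was 0.26 (0.01 to 0.51, edgeR adjusted p = 0.373), and without tin protoporphyrin replicate 2 it was 0.40 with an adjusted p of 0.0341, a setting in which 8.593% of all tested genes were called. HMOX1, the heme oxygenase gene that BACH1 represses, did differ, at 47.0 ± 19.2 CPM with zinc and 7.38 ± 0.529 CPM with tin protoporphyrin (log2 2.49 ± 0.21, adjusted p = 2.04e-05).

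Of 31 listed NRF2 target genes, a list chosen with earlier results of these data known, 29 were tested. With HPPE 21 were called higher, 0 lower and 8 were not called, where 2.57% of all tested genes were called higher. Their median log2 fold change was 0.69, against 0.02 over all tested genes. HMOX1 went from 5.90 ± 1.57 to 352 ± 17.6 CPM (edgeR adjusted p = 2.62e-11) and TXNRD1, a thioredoxin reductase, from 235 ± 17.8 to 806 ± 35.4 CPM (adjusted p = 2.65e-09). With zinc protoporphyrin 2 of the 29 were called higher, HMOX1 at 47.0 CPM and GCLM, a subunit of the enzyme that starts glutathione synthesis, at 42.4 ± 11.5 against 26.3 ± 0.779 CPM. Across all tested genes 1.84% were called higher with zinc protoporphyrin. With tin protoporphyrin edgeR called none of the 29, of which 4 had an unadjusted p under 0.05, and DESeq2 called 0.

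Relatives and partners of the 10 genes moved in few cases. Across all tested genes 4.04% were called with HPPE, 2.25% with zinc and 2.28% with tin protoporphyrin. Of 7 related CNC and large MAF factors 5 were tested, and BACH2, a repressor akin to BACH1, rose with HPPE, from 48.7 ± 7.52 to 71.1 ± 3.38 CPM (log2 0.50 ± 0.13, edgeR adjusted p = 0.0341). BACH2 rose with zinc protoporphyrin as well, to 74.6 ± 9.35 CPM (log2 0.56 ± 0.13, adjusted p = 0.0331). With tin protoporphyrin it was at 62.0 ± 9.47 CPM and missed the threshold (log2 0.30 ± 0.13, adjusted p = 0.267). Of 9 other genes of NRF2 degradation, among them RBX1, SKP1 and GSK3B, edgeR and DESeq2 called 0 with any compound against the control, and 1, 3 and 1 had an unadjusted p under 0.05 for HPPE, zinc and tin.

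Of 6 other proteins that bind KEAP1, AMER1 fell with HPPE (log2 -0.47 ± 0.12, edgeR adjusted p = 0.0361), where 1.47% of all tested genes were called lower. None of the 6 was called with the protoporphyrins. None of 5 co-regulators of NRF2 was called by edgeR or DESeq2, and none had an unadjusted p under 0.05 against the control. None of 6 genes that process NFE2L1 protein was called by edgeR with any compound; 2, 1 and 1 had an unadjusted p under 0.05 for HPPE, zinc and tin, and DESeq2 called 2 with HPPE. Of 31 proteasome subunits, the classic targets of NFE2L1, 1 was called with HPPE, PSMA3 (log2 0.46 ± 0.12, adjusted p = 0.0338), a share no larger than the 4.04% of all tested genes. The median log2 change of those subunits was 0.21 with HPPE, -0.11 with zinc and 0.01 with tin protoporphyrin, against 0.02, 0.00 and 0.01 over all tested genes.

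Of 18 autophagy genes that work with SQSTM1, 2 were called with HPPE and 1 with tin protoporphyrin, where 4.04% and 2.28% of all tested genes were. GABARAPL1, which coats autophagosome membranes, rose from 8.31 ± 3.41 to 14.5 ± 1.92 CPM with HPPE (log2 0.99 ± 0.23, edgeR adjusted p = 0.0213). TBK1, the kinase that phosphorylates SQSTM1, rose as well (log2 0.42 ± 0.09, adjusted p = 0.0132). NBR1, a receptor related to SQSTM1, fell with tin protoporphyrin (log2 -0.33 ± 0.08, adjusted p = 0.0307). Of 17 other adaptors of CUL3, 1 was called with tin protoporphyrin, KLHL12, which fell (log2 -0.32 ± 0.08, adjusted p = 0.0437), and edgeR called none with HPPE or zinc, where 3 and 6 had an unadjusted p under 0.05 and DESeq2 called 0 and 1.

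For each called member, the genes most alike in log2 CPM over the 12 libraries were taken from 10972 genes, with no test. The 12 points include the 3 HPPE libraries, in which these members were highest. SQSTM1 was most like DNAJB4, an HSP40 co-chaperone (r = 0.996), and TKT, which encodes transketolase, was also among its nearest (0.979). MAFG was most like FKBP4, an HSP90 co-chaperone (0.991), the ferritin heavy chain gene FTH1 (0.974) and the chaperone gene HSPA8 (0.972). KEAP1 was most like NQO2 (0.965), FKBP4 (0.959) and HNRNPK (0.959). DNAJB4 changed by 1.48 with HPPE, 0.27 with zinc and 0.19 with tin protoporphyrin on the log2 scale, beside 1.30, 0.27 and 0.22 for SQSTM1.

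Promoter windows from RefSeq, 250 bases before to 50 after a start (GRCh38.p14), were available for 8 of the 10 genes, that is all but MAFK and BTRC. They were searched on both strands for the core of the antioxidant response element, TGACNNNGC, and for the AP-1 element TGACTCA, which can overlap it. The core was found in 13.35% of 35116 windows of this length and in 16.06% of 27305 genes, and the AP-1 element in 4.95% of windows. Among the members KEAP1 had 2 core matches in 1 window, MAFF had 1, and a window of BACH1 had an AP-1 match starting at position -48. All lie within annotated exons. The matches of KEAP1, which was called with HPPE, and of MAFF, the other member with a core match, are shown with the core in capitals and 10 bases on either side. The first lies at positions -54 to -46 on the gene's strand, the others at -31 to -23 and -122 to -114 on the opposite strand.
KEAP1, chr19:10502807-10502835, minus strand: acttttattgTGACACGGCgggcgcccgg
KEAP1, chr19:10502784-10502812, minus strand: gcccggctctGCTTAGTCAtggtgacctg
MAFF, chr22:38201862-38201890, plus strand: cttccaggggGCGGGGTCAtacgggggcg

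No core match was found in the windows of MAFG or SQSTM1, the other called members, which says only that these letters are absent from those windows. The stretches just upstream of their starts that lie outside annotated exons are shown, from -93 to -1 for MAFG and from -58 to -1 for SQSTM1. These data hold no measure of factor binding, and a match is a description of sequence alone.
MAFG, chr17:81927736-81927828, minus strand: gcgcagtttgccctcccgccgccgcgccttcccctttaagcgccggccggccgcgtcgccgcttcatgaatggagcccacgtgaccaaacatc
SQSTM1, chr5:179806335-179806392, plus strand: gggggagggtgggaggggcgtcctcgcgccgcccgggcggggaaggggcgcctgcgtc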

How the data were processed

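The authors deposited whole-number counts of reads for each gene, without scaling. The submitters' processing notes name fastp 0.21.1, STAR 2.7.7a, featureCounts and GRCh38; the annotation and strand setting are not given in the sources used here. The members and lists were chosen with earlier results of these data known. Of 60710 genes, 60437 matched a symbol. Counts were tested in edgeR 4.0.16 (R 4.3.3): filterByExpr by group left 16366 genes holding 99.6% of counts, with TMM scaling, 1 robust quasi-likelihood fit over all 12 libraries and Benjamini-Hochberg adjustment over all tested genes. The coefficient of variation was 0.0913. SE were derived from the F statistic. Lengths, GC content and positions came from GENCODE release 29. Named genes were the 10 members, listed genes called against the control (up to 4 per list), HMOX1, and the 3 genes most like each called member, 1 of which is not reported here. Other alternatives included DESeq2 1.42.0, other filters and scalings, leaving out each library, and, added after seeing the data, HPPE replicates 2 and 3 summed. The fit was tested on simulated data.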

Additional observations from a re-analysis of the deposited data

How the results depend on the processing

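Of the 60 pairs of a member and a comparison, 8 were called; 6 kept the call in every alternative run, and KEAP1 lost it in 5 alternatives against the control and in 1 against zinc protoporphyrin. Of the 52 not called, 42 were not called in any alternative and 10 gained a call in at least 1. No pair changed direction with a call in the reported fit or in the alternative. Some pairs without a call did change sign, such as MAFK for HPPE against zinc protoporphyrin (log2 from -0.10 to 0.83). The library covariate gave 2 called members for zinc protoporphyrin against the control (NFE2L1 lower, SQSTM1 higher), where 9.019% of all tested genes were called. It gave 2 for tin protoporphyrin against the control (BTRC lower, SQSTM1 higher), where 13.84% were called. For HPPE against tin protoporphyrin it gave 4 (BACH1, KEAP1, MAFG and SQSTM1), where 8.127% were called. The length and GC correction gave 1 for zinc protoporphyrin against the control (SQSTM1), where 5.493% were called. The cause was not tested. Leaving out each library in turn gave 2 to 3 members for HPPE, 0 for zinc and 0 for tin protoporphyrin against the control. Of all tested genes 1.674% to 6.151%, 0.423% to 1.57% and 0.858% to 3.708% were called there, in that order. It gave 2 to 4 members for HPPE against zinc (1.032% to 11.386% of all tested genes) and 2 to 3 for HPPE against tin (0.537% to 2.018%). For zinc against tin protoporphyrin it gave 0 to 1 (0.006% to 8.593%), where the call was BACH1 without tin protoporphyrin replicate 2. Same-numbered libraries did not consistently deviate together (correlations from -0.683 to 0.517 over 18 pairs), and the reported fit used no pairing. These deviations carry the length trend described above, so they cannot decide whether same-numbered wells shared a culture or day. With the replicate block the counts of called members stayed at 3, 0, 0, 3, 2 and 0, while calls over all genes for HPPE against the control went from 662 to 412, against 1806 with the library covariate and 1225 with the length and GC correction. Depth limits MAFF and MAFK most, since a count of 3 is worth up to 2.26 CPM.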
